A study of Rattus norvegicus with 8 samples.

Results

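Immediate early genes are the first genes that a cell transcribes after a growth factor, a cytokine or a stress reaches it, before any new protein is made. The 10 described here, Fos, Fosl1, Jun, Junb, Egr1, Nr4a1, Atf3, Ier3, Myc and Dusp1, were chosen by name, and every probe set that the platform's annotation gives to one of them was taken. They had 24 probe sets of the 8799 on the array, and were 10 of 4737 genes with a probe set of a single symbol. Total RNA of C6, an established rat glioma line with glial features, was hybridised to 8 arrays in 4 groups of 2, labelled C6SPGFP fast, C6SPGFP slow, C6 fast and C6 slow. Migration is the only subject that the labels name. All 8 samples carry the same cell line as their source, and no genotype, treatment, time or culture condition was given for any of them. None of the sources used here says what C6SPGFP stands for, how fast cells were told apart from slow ones, or whether the 2 replicates of a group came from different cultures. The p-values below therefore measure the spread between these samples alone, which may be technical.

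As background, growth factor receptors switch these genes on through Ras and the MAP kinases, which activate factors already bound at their promoters, and cyclic AMP and calcium act through CREB. Most of the products are transcription factors: Fos and Jun proteins pair to form AP-1, Egr1 is a zinc finger protein, Nr4a1 an orphan nuclear receptor and Myc a driver of growth and proliferation. Others act back on the signal, such as Dusp1, a phosphatase that switches MAP kinases off. Their RNAs are short-lived. In astrocytes and gliomas AP-1, Egr1 and Myc are known as responders to serum and growth factors.

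The promoters of Egr1 and Nr4a1, the members whose fast minus slow change differed most between the sets, are printed with that of Fosl1, whose signal differed the other way from that of Fos. They are the 250 bases before the gene's start in RefSeq (assembly GRCr8), 5′ to 3′ on the plus strand, which is the gene's strand for all 3. Capitals mark CArG boxes, the sites of serum response factor, and the letters TGACG on either strand, the core of the cyclic AMP response element. They lie at chr18:26736828-26737077 for Egr1, chr7:134259888-134260137 for Nr4a1 and chr1:212183635-212183884 for Fosl1.
Egr1: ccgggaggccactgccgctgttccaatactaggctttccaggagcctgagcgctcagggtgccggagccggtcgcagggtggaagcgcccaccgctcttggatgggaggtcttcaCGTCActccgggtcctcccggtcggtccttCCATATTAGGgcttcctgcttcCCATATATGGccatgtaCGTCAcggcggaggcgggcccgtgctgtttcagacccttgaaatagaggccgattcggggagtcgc
Nr4a1: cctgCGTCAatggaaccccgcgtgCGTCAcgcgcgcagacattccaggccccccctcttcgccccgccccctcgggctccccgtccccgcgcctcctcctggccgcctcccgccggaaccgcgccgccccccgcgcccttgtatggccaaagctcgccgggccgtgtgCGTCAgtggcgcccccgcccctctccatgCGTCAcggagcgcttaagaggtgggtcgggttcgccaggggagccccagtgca
Fosl1: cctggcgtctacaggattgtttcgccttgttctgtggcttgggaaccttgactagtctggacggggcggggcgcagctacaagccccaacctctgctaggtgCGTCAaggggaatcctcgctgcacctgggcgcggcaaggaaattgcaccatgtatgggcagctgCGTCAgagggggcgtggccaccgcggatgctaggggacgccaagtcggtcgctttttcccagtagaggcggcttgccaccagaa
Egr1 held 2 CArG boxes, which a search of both strands found in 1.5% of 33469 rat promoters of the same length. The letters TGACG stood in 18.2% of those promoters and in all 5 members with an entry in the table: 4 times in Nr4a1, 3 times in Dusp1, 2 times each in Egr1 and Fosl1 and once in Junb. One of the 3 in Dusp1 began the full element TGACGTCA, which holds TGACG on both strands and was found in 1.59% of promoters. An EGR site (GCGNGGGCG, 4.29% of promoters) and an ETS core (CCGGAA, 12.6%) were each found in Nr4a1 only. The AP-1 site TGANTCA (6.34%) was found in none of the 5 windows. These are matches of letters, and the arrays did not measure what is bound at them.

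The deposited values are probe set signals in arbitrary units of intensity, which were quantile normalised between the 8 arrays. One array, C6SPGFP fast replicate 1, had been deposited at a trimmed mean of 500.5, against 100.1 to 105.8 on the other 7. Across all probe sets, replicates correlated with r between 0.969 and 0.978, and C6 fast arrays correlated with C6 slow arrays at 0.923 to 0.939 and with C6SPGFP fast arrays at 0.908 to 0.913. Of the glial markers, Vim, S100b, Nes and Cspg4 were all measured, and Gfap was not analysed here. Their summed signal was 5901 to 5992 in C6SPGFP fast, 5620 to 5622 in C6SPGFP slow, 3045 to 3239 in C6 fast and 4228 to 4636 in C6 slow cells, lowest on the C6 fast arrays. That of 5 microglial and haematopoietic markers was 303 to 345 in C6SPGFP fast, 378 to 379 in C6SPGFP slow, 216 to 263 in C6 fast, and 245 to 265 in C6 slow cells. Among them Cd14 was at 250 and 206 in C6SPGFP fast against 90.6 and 128 in C6 fast cells. Cd37 ran the other way, at 21.6 and 18.3 in C6SPGFP fast against 40 and 66.2 in C6 fast cells. Neuronal markers (4 genes) summed to 48.1 to 118 and endothelial and mural ones (3 genes, most of it from Acta2) to 178 to 259 over all arrays. The part of these markers in the results below was not tested.

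A probe set passed a comparison when its limma p-value, adjusted by the Benjamini-Hochberg method over the 6684 probe sets tested, was under 0.05. Changes are differences of log2 of normalised signal plus 8, given ± SE, and folds are of signal plus 8. Probe sets of a gene are numbered by falling mean signal. Of the 24 probe sets 23 were tested, and the third of Dusp1 lay below the filter, at 2.0 to 14.8 on the 8 arrays. In at least 1 of 5 comparisons 10 of the 23, of 7 of the 10 genes, passed, where 19.2% of all probe sets did. Junb, Atf3 and Dusp1 passed in none.

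**Figure D1:**
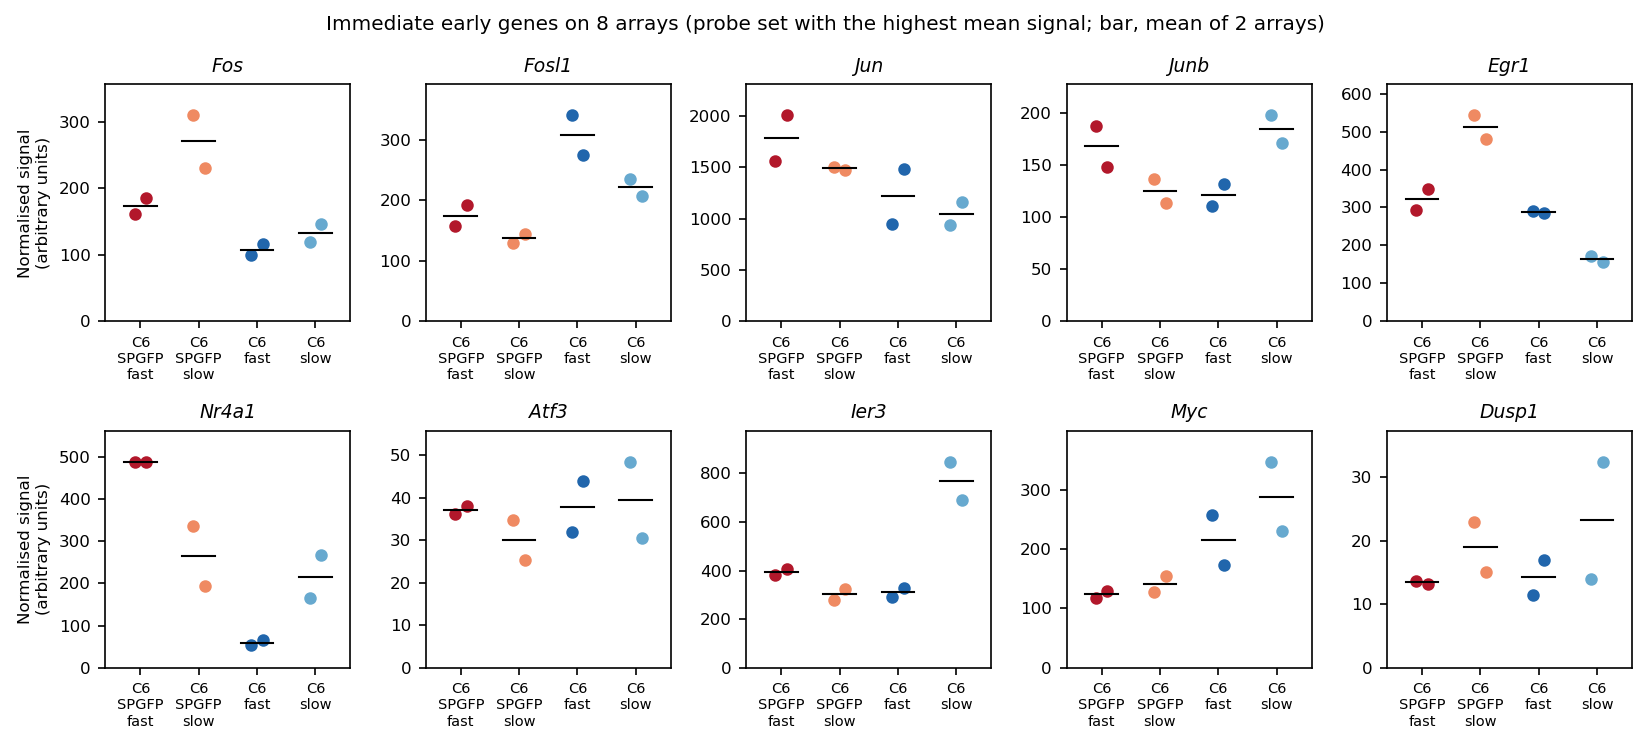
Normalised signal (arbitrary units, linear axes from 0) of the 10 immediate early genes, by the probe set of each with the highest mean signal. Points are single arrays and bars the mean of 2 arrays for C6SPGFP fast, C6SPGFP slow, C6 fast and C6 slow cells: Nr4a1 was lowest on both C6 fast arrays (54.2 and 64.9), Egr1 highest on both C6SPGFP slow arrays (543 and 482) and Ier3 highest on both C6 slow arrays (848 and 691).

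The comparison of fast with slow cells asks which of these genes go with the speed label. In C6, 5 of 23 probe sets (21.7%) passed, where 6.66% of all probe sets did. The 2 higher ones in fast cells were of Egr1 (background 2.69% higher) and the 3 lower ones of Nr4a1 and Ier3 (background 3.96% lower). In C6SPGFP, 1 of 23 (4.35%) passed, where 1.39% of all did, and it was a Fos probe set that was lower in fast cells (background 0.329% lower). The difference between the 2 changes passed for 5 of 23 (21.7%), where 3.82% of all did, and these were the first 2 of Egr1, both of Nr4a1 and the first of Ier3, 3 of them with a higher value in C6SPGFP (background 2.71% higher) and 2 with a lower one (1.11% lower). The difference is taken on the same arrays as the 2 changes. The median change of the 23 was -0.30 in C6, where it was 0.01 over all probe sets tested, and 0.08 in C6SPGFP, where it was -0.02 over all.

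**Figure D2:**
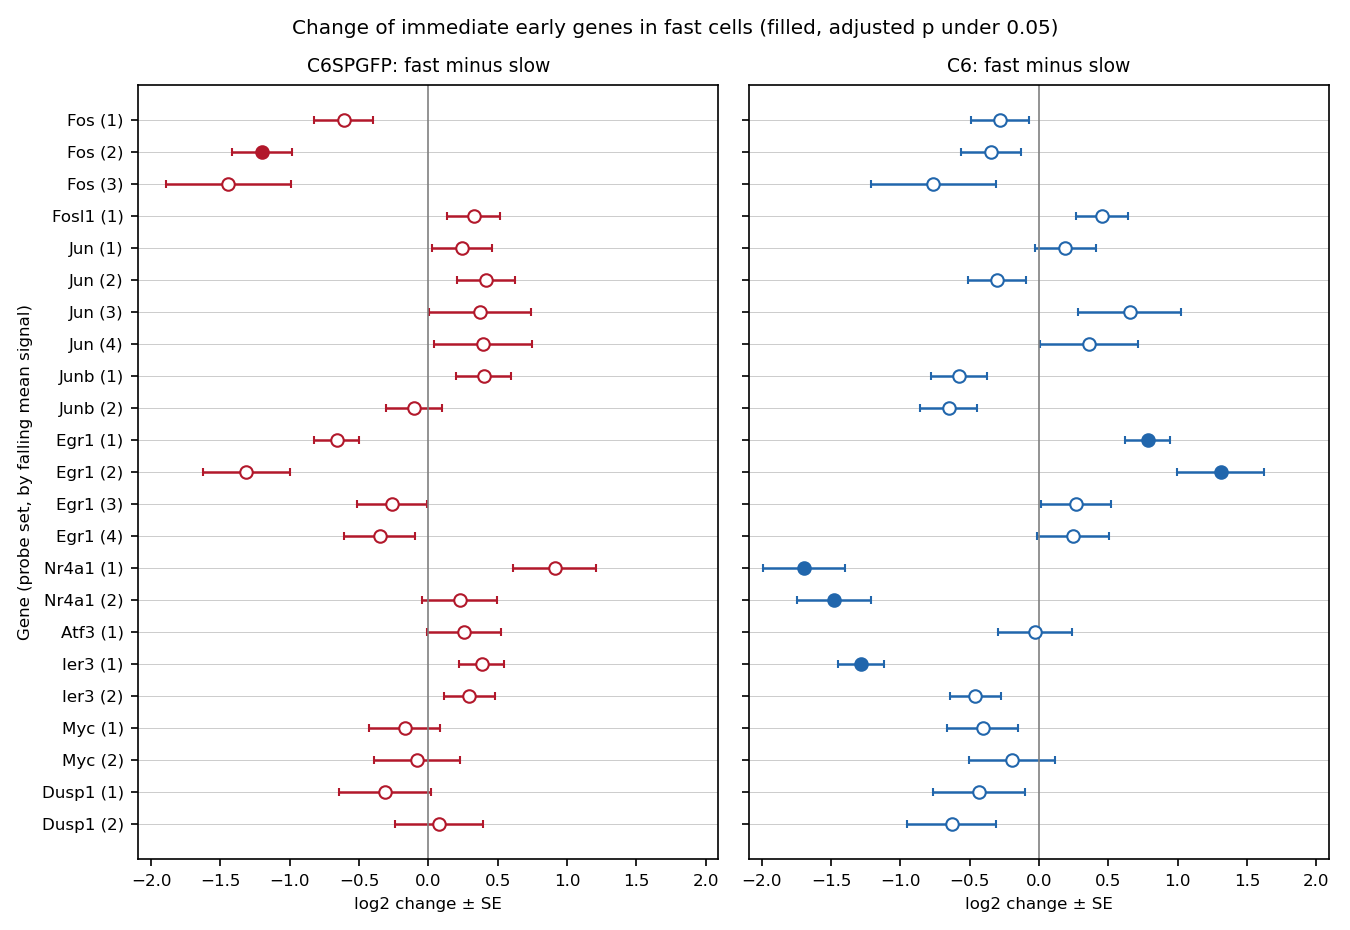
Log2 change ± SE (bars) of fast minus slow cells for the 23 probe sets tested, in C6SPGFP on the left and in C6 on the right, with probe sets of a gene numbered by falling mean signal. Filled points passed at an adjusted p under 0.05: the second of Fos in C6SPGFP, and the first 2 of Egr1, both of Nr4a1 and the first of Ier3 in C6.

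The comparison of the sets asks how C6SPGFP cells differ from C6 cells of the same speed label. It shares its arrays with the comparisons of speed, so its values are set beside theirs and are no separate evidence. In fast cells 5 of 23 probe sets (21.7%) passed, where 15.6% of all did, a share not far above that background. Both of Nr4a1 and 1 of Jun were higher in C6SPGFP (background 8.29% higher), and 1 each of Fosl1 and Myc lower (background 7.3% lower). In slow cells 6 of 23 (26.1%) passed, where 6.34% of all did: 2 each of Fos and Egr1 were higher in C6SPGFP (background 3.29% higher), and 1 each of Ier3 and Myc lower (background 3.05% lower).

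**Figure D3:**
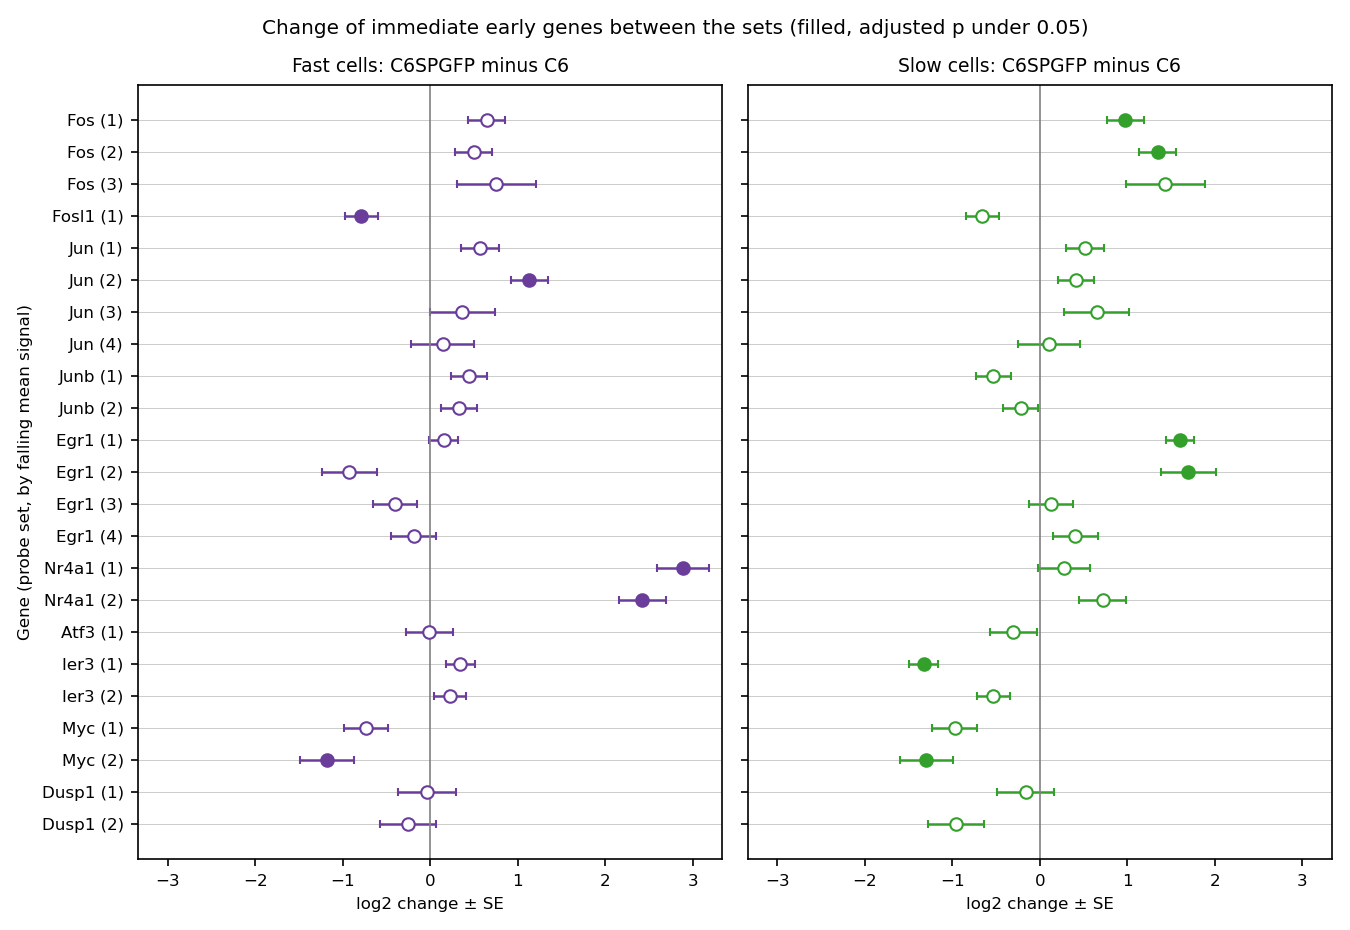
Log2 change ± SE (bars) of C6SPGFP minus C6 for the same 23 probe sets, in fast cells on the left and in slow cells on the right. Filled points passed at an adjusted p under 0.05, among them both probe sets of Nr4a1 in fast cells (2.88 and 2.42) and the first 2 of Egr1 in slow cells (1.60 and 1.70).

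Fos, the AP-1 subunit that gives the family its name, was highest in C6SPGFP slow cells on all 3 of its probe sets. The first (X06769cds_g_at) had signals of 161 and 185 in C6SPGFP fast, 310.1 and 232 in C6SPGFP slow, 99.2 and 116 in C6 fast, and 119 and 147 in C6 slow cells. The second (X03347cds_g_at) had 46.0 and 61.9 in C6SPGFP fast, 130 and 137 in C6SPGFP slow, 36.8 and 34.5 in C6 fast, and 42.0 and 53.9 in C6 slow cells. On both, the C6SPGFP slow arrays lay above the other 6. The third (X06769cds_at), which carries the same sequence name as the first, was dimmer, at 17.2 to 22.1 in C6SPGFP fast, 65.8 to 67.9 in C6SPGFP slow, 6 to 11 in C6 fast, and 8.1 to 39.7 in C6 slow cells. Over the 8 arrays the 3 probe sets correlated with r of 0.89 to 0.93.

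In fast C6SPGFP cells the second Fos probe set fell 2.30-fold against slow ones (log2 change -1.20 ± 0.22, limma adjusted p = 0.0347). The first and the third had changes of -0.61 ± 0.21 and -1.44 ± 0.45 (limma adjusted p = 0.325 and 0.269) and did not pass. In slow cells the first rose 1.97-fold in C6SPGFP against C6 (0.97 ± 0.21, limma adjusted p = 0.0311) and the second 2.54-fold (1.34 ± 0.22, limma adjusted p = 0.00931). In bulk RNA such a difference cannot be told apart between fewer cells that express the gene and less RNA per cell. In C6 the changes of fast minus slow were -0.28, -0.35 and -0.76, and none passed. The difference between the sets did not pass either (limma adjusted p = 0.222 for the second, 95% interval -1.54 to -0.16), so the change of Fos was not shown to differ between C6SPGFP and C6. The Fos calls of fast minus slow and of the first probe set in slow cells lay near the threshold. That of the second probe set in slow cells lay further from it, but each of these calls ended without some single arrays. The call of fast minus slow was lost also without the filter. It and that of the first probe set were lost when only the arrays compared were fitted. The changes kept their direction. When an array was left out, that of fast minus slow on the second probe set ranged from -1.40 to -0.99, that between the sets in slow cells from 1.19 to 1.51 on the second and from 0.77 to 1.19 on the first. The call of fast minus slow ended without any 1 of the 4 C6SPGFP arrays (limma adjusted p from 0.116 to 0.272), and without C6 fast replicate 1 or 2 (0.0623 and 0.0596). That of the second probe set between the sets in slow cells ended without C6SPGFP slow replicate 1 or 2 (0.0618 and 0.0832) or C6 slow replicate 1 (0.0567). That of the first ended without either C6SPGFP slow array (0.192 and 0.0745), C6 slow replicate 1 (0.134) or either C6SPGFP fast array (0.0518 and 0.0586).

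Fosl1, a Fos relative that lacks the strong activation domain of Fos and is known from migrating and transformed cells, ran the other way between the sets. Its single probe set (M19651_at) had signals of 157 and 192 in C6SPGFP fast, 129.6 and 145 in C6SPGFP slow, 340.3 and 275 in C6 fast, and 236 and 207 in C6 slow cells. All 4 C6 arrays lay above all 4 C6SPGFP arrays. In fast cells it fell 1.73-fold in C6SPGFP against C6 (-0.79 ± 0.19, limma adjusted p = 0.0239). The call ended without C6SPGFP fast replicate 1 or 2 (0.144 and 0.0608) or C6 fast replicate 1 (0.119). It ended also when only the fast cell arrays were fitted. In slow cells the change was -0.66 ± 0.19 (limma adjusted p = 0.0813), which did not pass. Fast minus slow gave 0.33 ± 0.19 in C6SPGFP and 0.46 ± 0.19 in C6, and neither passed. As a description over the 8 arrays, which share 4 groups, the log2 signals of Fos and Fosl1 had a correlation of -0.93.

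Jun, the partner that binds DNA together with Fos or with itself, had 4 probe sets. The first (rc_AI175959_at) had signals of 1558 and 2007 in C6SPGFP fast, 1506 and 1478 in C6SPGFP slow, 950.3 and 1486 in C6 fast, and 936 and 1158 in C6 slow cells. The second (rc_AA945867_at) had 586 and 619 in C6SPGFP fast, 416 and 485 in C6SPGFP slow, 219 and 333 in C6 fast, and 360 and 313 in C6 slow cells, with no overlap between the sets. In fast cells it rose 2.19-fold in C6SPGFP against C6 (1.13 ± 0.21, limma adjusted p = 0.00751), a call that ended without C6SPGFP fast replicate 2 (0.0598). The other 3 had changes of 0.57, 0.37 and 0.14 in that comparison and did not pass. The lowest limma adjusted p of any Jun probe set for fast minus slow was 0.399 in C6 and 0.572 in C6SPGFP. The 4 probe sets agreed unevenly, with pairwise r of 0.39 to 0.88 over the 8 arrays.

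Junb, a Jun relative that often restrains Jun, passed in no comparison. Its first probe set (rc_AA891041_at) had signals of 188 and 149 in C6SPGFP fast, 137 and 114 in C6SPGFP slow, 111 and 132 in C6 fast, and 198 and 172 in C6 slow cells. Its second (X54686cds_at) had 117 and 133 in C6SPGFP fast, 114 and 159 in C6SPGFP slow, 101 and 94.9 in C6 fast, and 151 and 167 in C6 slow cells. On both, C6 fast arrays lay below C6 slow ones, with changes of -0.58 ± 0.20 and -0.65 ± 0.20 (limma adjusted p = 0.148 and 0.11). In C6SPGFP the changes were 0.40 ± 0.20 and -0.10 ± 0.20, of unlike sign, and the 2 probe sets correlated with r of only 0.37. Atf3, a stress-induced factor that can pair with Jun proteins, had signals of 36.2 and 38.0 in C6SPGFP fast, 34.8 and 25.2 in C6SPGFP slow, 31.8 and 43.9 in C6 fast, and 48.4 and 30.5 in C6 slow cells. No group stood apart from the other 3, and its largest change in size, of C6SPGFP minus C6 in slow cells, was -0.30 (95% interval -0.91 to 0.30).

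Among 8 other AP-1 and CREB/ATF genes tested, none passed for fast minus slow in either set, for the difference or between the sets in slow cells. Of all probe sets 6.66% passed for fast minus slow in C6, 1.39% in C6SPGFP, 3.82% for the difference and 6.34% in slow cells. In fast cells 2 fell in C6SPGFP against C6. Fosl2, the closest relative of Fosl1, was at 62.5 and 49.1 in C6SPGFP fast and 107 and 101 in C6 fast cells (-0.82 ± 0.21, limma adjusted p = 0.031). Atf2 was at -0.80 ± 0.23 (limma adjusted p = 0.0487). These 2 of 8 compare with 7.3% of all probe sets lower in that comparison. The Fosl2 call ended without any 1 of 6 arrays, all but the C6 slow ones (limma adjusted p up to 0.187), and held in 9 of 17 alternatives. That of Atf2 ended without any 1 of the 8 arrays and held in 2 of 16 alternatives (limma adjusted p up to 0.26).

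Egr1, a zinc finger factor switched on through serum response factor, changed differently with speed in the 2 sets. Its first probe set (AF023087_s_at) had signals of 294 and 349.6 in C6SPGFP fast, 543 and 482 in C6SPGFP slow, 291 and 285 in C6 fast, and 172 and 156 in C6 slow cells. The second (M18416_at) had 70.6 and 63.9 in C6SPGFP fast, 207 and 154 in C6SPGFP slow, 129 and 141 in C6 fast, and 32.8 and 73.5 in C6 slow cells. On both probe sets C6SPGFP slow was the highest group, with no overlap with the other 3. The remaining probe sets (U75398_s_at and rc_AI176662_s_at) lay between 25.8 and 61.4 on all arrays, and neither passed in any comparison.

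In C6, Egr1 rose 1.72-fold in fast against slow cells on the first probe set (0.78 ± 0.16, limma adjusted p = 0.0226) and 2.48-fold on the second (1.31 ± 0.31, limma adjusted p = 0.0443). In C6SPGFP the changes were -0.66 ± 0.16 and -1.31 ± 0.31 (limma adjusted p = 0.129 and 0.119), and neither passed. The difference itself, C6SPGFP minus C6, passed on both, at -1.45 ± 0.23 (limma adjusted p = 0.0111, 95% interval -1.97 to -0.93) and -2.63 ± 0.44 (limma adjusted p = 0.014, 95% interval -3.64 to -1.61). In slow cells Egr1 rose in C6SPGFP against C6, 3.02-fold on the first (1.60 ± 0.16, limma adjusted p = 0.00132) and 3.24-fold on the second (1.70 ± 0.31, limma adjusted p = 0.0167). In fast cells neither differed past the threshold, with changes of 0.15 and -0.93.

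The Egr1 calls were of unequal strength. That of the first probe set between the sets in slow cells held under all 17 alternative settings tried. For fast minus slow in C6 the first lost its call without C6SPGFP slow replicate 1 (0.0501) or any of the 4 C6 arrays (0.0536 to 0.086), and the second without any array but C6 slow replicate 2 (0.0671 to 0.185). The second probe set's call in C6 held in 5 of 17 alternatives, and was lost also with the replicate number as a block (0.0564), with trimmed-mean scaling (0.0533), without the filter (0.0737) and without a trend in the moderation (0.0605). Its change in C6 was 0.81 without C6 slow replicate 1. Both probe sets lost their calls in C6 also when only the C6 arrays were fitted. The difference on the first ended without C6SPGFP fast replicate 1 or slow replicate 1 (0.055 and 0.0594), and on the second without C6SPGFP fast replicate 2, slow replicate 1 or C6 fast replicate 2 (0.0649, 0.0657 and 0.0592). The second probe set's call between the sets in slow cells ended without either C6SPGFP slow array (0.121 and 0.0686) or C6 slow replicate 1 (0.0528). That call ended also when only the slow cell arrays were fitted. All values in brackets are limma adjusted p-values. The 4 probe sets of Egr1 correlated with r of 0.14 to 0.74, so the dimmer 2 did not follow the brighter 2 closely.

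Nr4a1, also known as Nur77, an orphan receptor that binds DNA without a known hormone and is induced by growth factors, had the largest change of any member. Its first probe set (U17254_g_at) had signals of 488 and 489 in C6SPGFP fast, 337 and 194 in C6SPGFP slow, 54.2 and 64.9 in C6 fast, and 165 and 268 in C6 slow cells. Its second (U17254_at), which carries the same sequence name, had 297 and 329.5 in C6SPGFP fast, 301 and 236 in C6SPGFP slow, 43.9 and 61.3 in C6 fast, and 123 and 205 in C6 slow cells. On both, the C6 fast arrays were the lowest, with no overlap with any other group. The 2 probe sets correlated with r of 0.97.

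In fast cells Nr4a1 rose 7.37-fold in C6SPGFP against C6 on the first probe set (2.88 ± 0.30, limma adjusted p = 0.000436) and 5.35-fold on the second (2.42 ± 0.27, limma adjusted p = 0.000629). Both calls held under all 17 alternatives. In C6, it fell 3.24-fold and 2.78-fold in fast against slow cells (-1.70 ± 0.30 and -1.48 ± 0.27, limma adjusted p = 0.0104 and 0.0125). Both calls ended without C6 fast replicate 1 (0.0653 and 0.0736). That of the second probe set ended also when only the C6 arrays were fitted. In C6SPGFP the changes were 0.91 ± 0.30 and 0.23 ± 0.27, which did not pass (limma adjusted p = 0.297 and 0.859). The difference passed at 2.61 ± 0.42 (limma adjusted p = 0.0114) and 1.70 ± 0.38 (limma adjusted p = 0.0478). That of the first probe set ended only without C6SPGFP fast replicate 2 among the arrays left out (0.0544), while that of the second held in 4 of 16 alternatives and ended without any array but C6 slow replicate 1 (0.0688 to 0.202). In slow cells the changes between the sets were 0.27 and 0.72, and neither passed.

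Ier3, an early response protein linked to survival and to ERK signalling, was highest in C6 slow cells. Its first probe set (X96437mRNA_g_at) had signals of 382 and 408 in C6SPGFP fast, 278 and 325 in C6SPGFP slow, 292 and 329 in C6 fast, and 848 and 691 in C6 slow cells. Both C6 slow arrays lay above the other 6. The second (X96437mRNA_at, of the same sequence name) showed the same order of C6 slow over the rest with a smaller gap, at 239 and 267 in C6SPGFP fast, 232 and 181 in C6SPGFP slow, 204 and 228 in C6 fast, and 278 and 323 in C6 slow cells. In C6 the first fell 2.43-fold in fast against slow cells (-1.28 ± 0.16, limma adjusted p = 0.00199). Its change in C6SPGFP was 0.38 ± 0.16 (limma adjusted p = 0.504), and the difference passed at 1.67 ± 0.23 (limma adjusted p = 0.00576). In slow cells it fell 2.51-fold in C6SPGFP against C6 (-1.33 ± 0.16, limma adjusted p = 0.00326). These 3 calls held under every alternative tried. The second probe set passed in none, with changes of -0.46, 0.75 and -0.53 in those comparisons (limma adjusted p = 0.21, 0.201 and 0.139).

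Myc, the growth-promoting factor that pairs with Max, separated the sets rather than the speeds. Its first probe set (Y00396mRNA_g_at) had signals of 118 and 129 in C6SPGFP fast, 127 and 154 in C6SPGFP slow, 256 and 173 in C6 fast, and 347 and 229.7 in C6 slow cells. The second (Y00396mRNA_at, of the same sequence name) had 67.9 and 75.4 in C6SPGFP fast, 63.2 and 91.6 in C6SPGFP slow, 195 and 153 in C6 fast, and 273 and 144 in C6 slow cells. On both, all 4 C6 arrays lay above all 4 C6SPGFP arrays, and the spread between C6 replicates was wide. The second fell in C6SPGFP against C6, 2.27-fold in fast cells (-1.18 ± 0.31, limma adjusted p = 0.0338) and 2.46-fold in slow cells (-1.30 ± 0.31, limma adjusted p = 0.0449). The first had changes of -0.74 and -0.97 (limma adjusted p = 0.0937 and 0.063) and did not pass. The calls of the second held in 12 of 17 alternatives in fast cells and 6 of 17 in slow cells. Both were lost without the filter. The call in slow cells was lost also without a trend in the moderation and when only the slow cell arrays were fitted. Without C6SPGFP fast replicate 1 or 2, or C6 fast replicate 1 or 2, the call in fast cells ended (0.133, 0.119, 0.161 and 0.0713). That in slow cells ended without any array but C6 slow replicate 2 (0.0595 to 0.23), with a change of -0.85 without C6 slow replicate 1, and with the replicate number as a block (0.0563).

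Dusp1, the MAP kinase phosphatase, was dim. Its first probe set (U02553cds_s_at) had signals of 13.7 and 13.2 in C6SPGFP fast, 22.9 and 15.0 in C6SPGFP slow, 11.5 and 17.0 in C6 fast, and 14.0 and 32.4 in C6 slow cells. Its second (S81478_s_at) had 16.2 and 7.4 in C6SPGFP fast, 14.0 and 7.3 in C6SPGFP slow, 15.8 and 14.2 in C6 fast, and 34.0 and 22.2 in C6 slow cells. On the second both C6 slow arrays were the highest, while on the first 1 C6 slow array was the highest of the 8 and the other was not. The 2 probe sets correlated with r of 0.23. The largest change in size, of the second between the sets in slow cells, was -0.96 (95% interval -1.69 to -0.23, limma adjusted p = 0.124). Signals were not tested against the background of the array, so values as low as these are not shown to exceed it.

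The order of the groups was thus not shared by the members. Fos and Egr1 were highest in C6SPGFP slow, Nr4a1 was lowest in C6 fast, Ier3 was highest in C6 slow, and Fosl1 and Myc were higher in C6 than in C6SPGFP. As a description over the 8 arrays and the brightest probe set of each gene, the log2 signals of Egr1 and Ier3 had a correlation of -0.84 and those of Jun and Myc of -0.91. The highest positive correlations were 0.78 for Junb and Ier3 and 0.72 for Fos and Egr1. These pairs were picked by size from all pairs of members. The named genes whose pattern over the 8 arrays was most like that of a member were found by Pearson's r. For Nr4a1 they were Ctsl (0.972), Cd9 and Mgst1 (0.968 each), for Egr1 Vps33a (0.983), Gstp1 (0.97) and Uqcrfs1 (0.948), and for Fos Mgp (0.967), Erbb3 (0.958) and Tgfbr1 (0.956). For Fosl1 they were Id3 (0.99), Snf8 (0.985) and Ggh (0.982), and for Ier3 Cd28 (0.965), Il6 (0.952) and Cyp1b1 (0.951). With 4 groups behind 8 arrays many genes reach such values.

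Other genes of the early response were counted by a single probe set each, the one with the highest mean signal. Of 19 other early transcription factors, 2 rose and 3 fell in fast against slow C6 cells, and 1 rose in C6SPGFP. Between the sets 1 was higher and 2 lower in C6SPGFP in fast cells, and 1 higher and 4 lower in slow cells. Over all probe sets 2.69% rose and 3.96% fell in fast C6 cells and 1.06% rose in fast C6SPGFP cells, while 8.29% were higher and 7.3% lower in C6SPGFP in fast cells, and 3.29% and 3.05% in slow cells. Their median change was -0.40 in C6 and 0.05 in C6SPGFP, where all probe sets had 0.01 and -0.02. Egr2, the relative of Egr1 that governs myelination in Schwann cells, had signals of 181 and 221 in C6SPGFP fast, 272 and 284 in C6SPGFP slow, 12.3 and 13.5 in C6 fast, and 87.1 and 40.5 in C6 slow cells. Unlike Egr1 it fell in fast C6 cells (-1.70 ± 0.30, limma adjusted p = 0.0107), and it rose in C6SPGFP against C6 in fast (3.32 ± 0.30, 0.000196) and in slow cells (2.07 ± 0.30, 0.00627). The call in C6 ended without C6 fast replicate 1 or 2 (0.0571 and 0.0562), and that in slow cells without C6SPGFP slow replicate 2 (0.058). The call in C6 was lost also when only the C6 arrays were fitted. The difference of the changes did not pass for Egr2 (limma adjusted p = 0.195). Its C6 fast signals were low, so the sizes of its changes depended on the settings, the pseudocount among them. Over the alternatives the change in C6 ranged from -2.21 to -1.05, and that between the sets in fast cells from 2.37 to 3.76.

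Cebpb, a bZIP factor of inflammation, had signals of 56.4 and 64.1 in C6SPGFP fast, 44.8 and 56.1 in C6SPGFP slow, 367 and 319 in C6 fast, and 205 and 146 in C6 slow cells. It fell in C6SPGFP against C6 in fast (-2.36 ± 0.22, limma adjusted p = 0.000227) and slow cells (-1.64 ± 0.22, 0.00471), and its rise in fast C6 cells (0.95 ± 0.22, 0.0372) held in 7 of 17 alternatives and ended without any array but C6 slow replicate 1. Id3, a helix-loop-helix protein that blocks differentiation factors, showed the same order, at 661 and 599 in C6SPGFP fast, 379 and 386 in C6SPGFP slow, 1822 and 1519 in C6 fast, and 959 and 861 in C6 slow cells. It rose in fast C6 cells (0.87 ± 0.14, limma adjusted p = 0.00677) and fell in C6SPGFP against C6 in fast (-1.39 ± 0.14, 0.000351) and slow cells (-1.23 ± 0.14, 0.00231), under all 17 alternatives. Klf4, a zinc finger factor that slows the cell cycle, was lowest in C6SPGFP slow cells. Its signals were 487 and 535 in C6SPGFP fast, 232 and 268 in C6SPGFP slow, 483 and 416 in C6 fast, and 621 and 567 in C6 slow cells. In slow cells it fell in C6SPGFP against C6 (-1.22 ± 0.15, limma adjusted p = 0.00356), under all 17 alternatives. It rose in fast against slow C6SPGFP cells (1.01 ± 0.15, limma adjusted p = 0.0179), a call that ended without any 1 of the 4 C6SPGFP arrays.

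**Figure D4:**
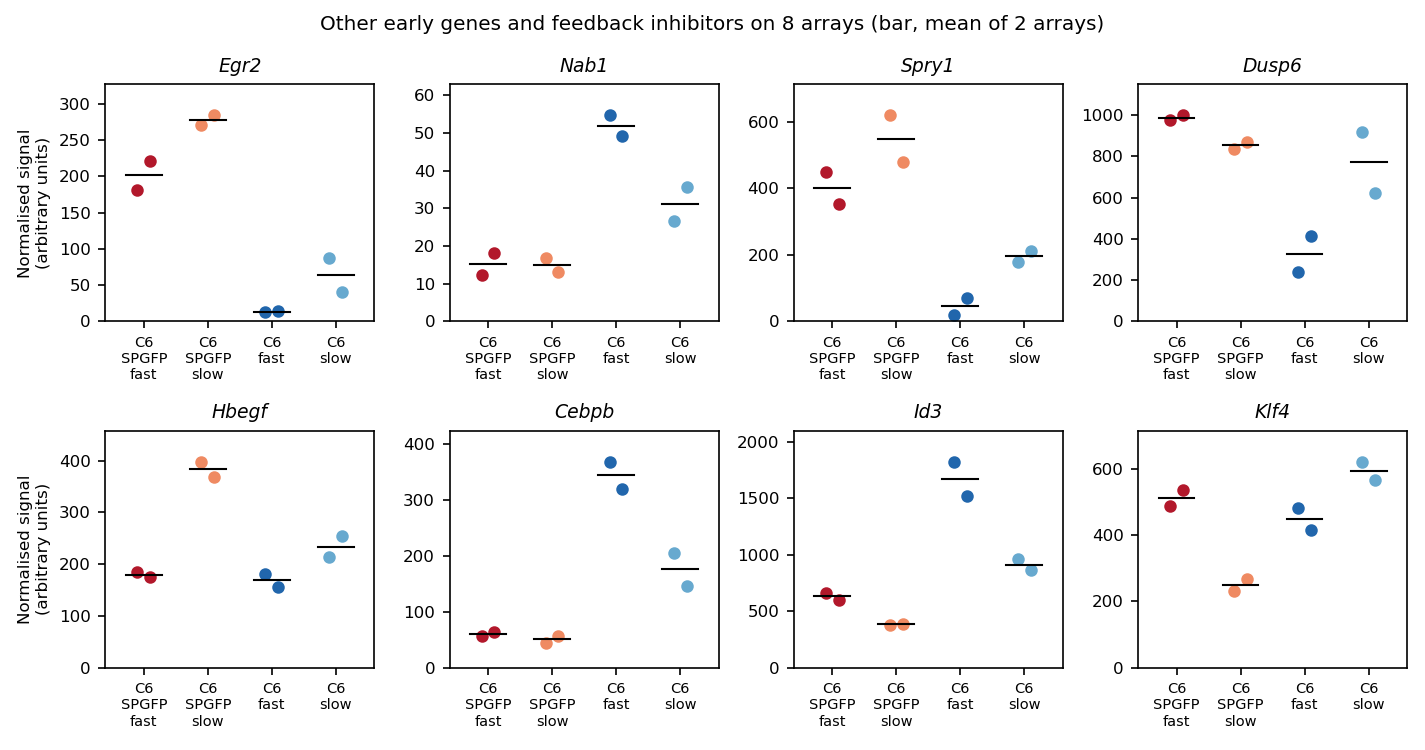
Normalised signal (arbitrary units, linear axes from 0) of 8 other early genes and feedback inhibitors, with points for single arrays and bars for the mean of 2 arrays in C6SPGFP fast, C6SPGFP slow, C6 fast and C6 slow cells. Egr2, Spry1 and Dusp6 were lowest on both C6 fast arrays, as Nr4a1 was, and Cebpb and Id3 highest there, while Hbegf was highest on both C6SPGFP slow arrays (398 and 369).

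Of 14 feedback inhibitors of early signalling, 2 fell in fast C6 cells, none passed in C6SPGFP, 4 were higher and 4 lower in C6SPGFP against C6 in fast cells, and 1 higher and 1 lower in slow cells. The same shares over all probe sets were 3.96% lower in fast C6 cells, 8.29% higher and 7.3% lower between the sets in fast cells, and 3.29% and 3.05% in slow cells. Spry1, which blocks Ras activation below growth factor receptors, had signals of 449 and 352 in C6SPGFP fast, 619 and 477 in C6SPGFP slow, 18.2 and 71.0 in C6 fast, and 178 and 212 in C6 slow cells. It fell in fast C6 cells (-2.15 ± 0.44, limma adjusted p = 0.021) and rose in C6SPGFP against C6 in fast cells (3.16 ± 0.44, 0.00175). Dusp6, the phosphatase of ERK, had 974 and 999 in C6SPGFP fast, 836 and 869 in C6SPGFP slow, 239.7 and 415 in C6 fast, and 920.2 and 622 in C6 slow cells. It also fell in fast C6 cells (-1.24 ± 0.26, limma adjusted p = 0.0239) and rose in C6SPGFP against C6 in fast cells (1.62 ± 0.26, 0.00376). The 2 calls between the sets held under all 17 alternatives. Those in C6 ended without C6 slow replicate 1 or 2 for Spry1 (0.0746 and 0.0881), and without C6 fast replicate 1, C6 slow replicate 1 or either C6SPGFP slow array for Dusp6 (up to 0.131). The call of Dusp6 in C6 was lost also without a trend in the moderation and when only the C6 arrays were fitted. Without C6 fast replicate 1 the change of Spry1 in C6 was -1.34. Nab1, a corepressor that binds EGR proteins, fell in C6SPGFP against C6 in fast cells, at signals of 12.3 and 18.2 in C6SPGFP against 54.7 and 49.2 in C6 (-1.38 ± 0.24, limma adjusted p = 0.00601).

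Of 24 early effectors and secreted products, 2 rose and 5 fell in fast C6 cells, and 1 rose and 1 fell in C6SPGFP. Between the sets 6 were higher and 4 lower in C6SPGFP in fast cells, and 2 higher and 4 lower in slow cells. All probe sets gave 2.69% higher and 3.96% lower in fast C6 cells, 1.06% and 0.329% in fast C6SPGFP cells, 8.29% and 7.3% between the sets in fast cells, and 3.29% and 3.05% in slow cells. Ptgs2, the inducible cyclooxygenase, had signals of 1.1 and 1.3 in C6SPGFP fast, 4.6 and 1.9 in C6SPGFP slow, 130 and 143 in C6 fast, and 3.2 and 3.1 in C6 slow cells. It stood out on the C6 fast arrays, with a difference of its fast minus slow changes of -3.97 ± 0.34 (limma adjusted p = 0.000415). This probe set reached the filter's mean signal of 8 only through those arrays, so its calls are no independent support for that. Since its signals elsewhere were 1.1 to 4.6, the size of that difference depended on the pseudocount. It ranged from -5.41 to -2.34 over the alternatives. A dimmer Ptgs2 probe set (L25925_s_at) showed a smaller gap. It was at 18.1 and 15.2 in C6SPGFP fast, 8.8 and 17.2 in C6SPGFP slow, 67.6 and 89.4 in C6 fast, and 12.4 and 19.5 in C6 slow cells. Rhob, an early-induced small GTPase, had 664 and 748 in C6SPGFP fast, 951 and 1148 in C6SPGFP slow, 195 and 148 in C6 fast, and 671 and 557 in C6 slow cells. It fell in fast C6 cells (-1.80 ± 0.18, limma adjusted p = 0.000577) and rose in C6SPGFP against C6 in fast cells (2.0 ± 0.18, 0.000219), the direction of Nr4a1. Hbegf, a ligand of the EGF receptor, fell in fast C6SPGFP cells, at 185 and 174 against 398 and 369 in slow ones (-1.06 ± 0.17, limma adjusted p = 0.0227), as the second probe set of Fos did, and without any 1 of those 4 arrays its call ended (up to 0.188).

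Upstream of these genes, 1 of 21 Ras and MAP kinase pathway genes fell in fast C6 cells and none passed in C6SPGFP. Between the sets 5 were higher and 1 lower in C6SPGFP in fast cells, and 3 higher and 1 lower in slow cells. These are 6 of 21 in fast cells, where 15.6% of all probe sets passed, and 4 of 21 in slow cells, where 6.34% did, and in C6 3.96% of all were lower. Map3k1, a kinase above JNK, had signals of 427 and 491.5 in C6SPGFP fast, 513 and 500.1 in C6SPGFP slow, 118 and 103 in C6 fast, and 258 and 259 in C6 slow cells. It fell in fast C6 cells (-1.17 ± 0.16, limma adjusted p = 0.00239) and rose in C6SPGFP against C6 in fast cells (1.98 ± 0.16, 8.21e-05), both under all 17 alternatives. Pdgfra, a growth factor receptor common in glioma, had 930.2 and 919 in C6SPGFP fast, 1141 and 1158 in C6SPGFP slow, 326 and 386 in C6 fast, and 378 and 542 in C6 slow cells, with every C6SPGFP array above every C6 array. It rose in C6SPGFP in fast (1.36 ± 0.18, limma adjusted p = 0.00146) and slow cells (1.33 ± 0.18, 0.00509), the second without C6SPGFP slow replicate 2 at 0.0531.

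Around Myc, 18 genes of its network and textbook targets were tested. Of these 1 rose in fast C6 cells and none passed in C6SPGFP, while between the sets 3 were higher and 4 lower in C6SPGFP in fast cells and 2 higher and 4 lower in slow cells. Of all probe sets 2.69% rose in fast C6 cells, 8.29% were higher and 7.3% lower between the sets in fast cells, and 3.29% and 3.05% in slow cells. Those named here ran both ways. Odc1 and Cad, enzymes of polyamine and pyrimidine synthesis and targets of Myc, were lower in C6SPGFP fast than in C6 fast cells. Odc1 was at 309 and 308 in C6SPGFP against 629.5 and 916 in C6 (-1.28 ± 0.21, limma adjusted p = 0.00403) and Cad at 17.6 and 10.8 in C6SPGFP against 133 and 72.5 in C6 (-2.28 ± 0.31, 0.00161). Ccnd2, a cyclin of the early cell cycle, was higher in C6SPGFP fast than in C6 fast cells (1.29, limma adjusted p = 0.0114), as was Pcna, the sliding clamp of DNA replication (0.51, limma adjusted p = 0.0466). The Pcna call held in 9 of 17 alternatives, with a change as low as 0.23 (limma adjusted p up to 0.372). Max, the partner of Myc, had signals of 83.5 and 69.1 in C6SPGFP fast, 78.6 and 60.2 in C6SPGFP slow, 36.9 and 83.6 in C6 fast, and 8.7 and 8.7 in C6 slow cells. It rose in fast C6 cells (1.94 ± 0.33, limma adjusted p = 0.00868), although the 2 C6 fast arrays were far apart, and its call in C6 ended when only the C6 arrays were fitted (0.0501). Its C6 slow signals lay close to the pseudocount of 8, and the size of this change ranged from 1.13 to 2.49 over the alternatives.

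Handling of cells can switch on immediate early genes together with heat shock genes. Of 6 heat shock and stress genes tested, 1 fell in fast C6 cells, none passed in C6SPGFP, 1 was lower in C6SPGFP in fast cells and 2 in slow cells, where 3.96%, 7.3% and 3.05% of all probe sets were lower in C6, in fast cells and in slow cells. Their summed signal was 1396 to 1474 in C6SPGFP fast, 1532 to 1593 in C6SPGFP slow, 1704 to 2138 in C6 fast and 2091 to 2128 in C6 slow cells, lower on every C6SPGFP array. Most of the gap between the sets in that sum came from Hmox1, the oxidative stress enzyme haem oxygenase. Hmox1 was at 138 and 177 in C6SPGFP fast, 206 and 181 in C6SPGFP slow, 638 and 392 in C6 fast, and 758 and 714 in C6 slow cells. Hspa1a, the inducible HSP70, was at 8.2 and 6.5 in C6SPGFP fast, 5.1 and 3.9 in C6SPGFP slow, 2.4 and 2.6 in C6 fast, and 19.3 and 16.7 in C6 slow cells. It was highest in C6 slow cells, where Ier3 was highest too. Hspa1a reached the filter's mean signal of 8 only through those arrays, so its calls are no independent support for that. The part of these stress genes in the results was not tested.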

How the data were processed

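Total RNA of 8 C6 samples was measured on oligonucleotide arrays, and groups were taken from the sample titles. The deposited values are linear signals of intensity per probe set, from 0 to 14287.9, for 8799 probe sets, 59 of them controls. No source used here states the authors' software, and detection calls were not used. The arrays had unequal trimmed means (2% at each end), so they were quantile normalised. Log2 of signal plus 8 was fitted for 6684 probe sets with a mean signal of at least 8 (2056 lay below it). The fit used limma 3.58.1 in R 4.3.3 (lmFit with 4 group means, eBayes with trend), was two-sided and had 4 residual and 4.49 prior degrees of freedom. P-values were adjusted by Benjamini-Hochberg at 5% within each of 5 comparisons. The median SE was 0.241, and 0.341 for the difference of changes. The number of arrays limits the precision.

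The platform annotation gave gene names (7018 probe sets with 1 symbol, 308 with several, 1473 with none), and 6994 were updated by Entrez identifier through a GRCr8 table. Members and lists were chosen with earlier results of these data known. Each probe set of a member was accounted for. Of each of 11 lists the 3 largest increases and 3 largest decreases among called genes could be named, and for likeness the 3 genes of highest r. Alternatives were scaling, pseudocount, filter, moderation, the arrays fitted, a replicate block and leaving out each array. Simulated data went through the fit of fast minus slow C6 cells, on 7237 probe sets. Of 100 changes of log2 size 1 40% were recovered, and of 99 of size 2 87.9%, with 6 false calls. No other probe set fitted was changed, a smaller share than passed in C6, so recovery in these data may differ. Promoter sequences are from RefSeq.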

Additional observations from a re-analysis of the deposited data

Results flagged for a closer look

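The following differed between the sets: their fast minus slow change passed the test of the difference, C6SPGFP minus C6 (limma, Benjamini-Hochberg adjusted p under 0.05). Among the immediate early genes these were Egr1 on 2 probe sets (-1.45 and -2.63), Nr4a1 on 2 (2.61 and 1.70) and Ier3 on 1 (1.67). Egr1 had positive changes in C6 and negative ones in C6SPGFP, and Nr4a1 and Ier3 the reverse, on all of these probe sets. The changes within C6SPGFP did not pass on their own.

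Among the other genes named from the lists, the difference was 1.41 ± 0.22 (SE) for Klf4, 5.17 ± 0.40 for the chemokine Ccl2, 4.47 ± 0.34 for tissue factor (F3), 2.10 ± 0.43 for Il6 and -3.97 ± 0.34 for Ptgs2. It was 1.03 ± 0.22 for Map3k1, 1.60 ± 0.35 for Hspa1a, 2.54 ± 0.22 for S100b and 1.62 ± 0.27 for Nes. Signals of Il6 were 9.1 and 10.1 in C6SPGFP fast, 1.9 and 8.3 in C6SPGFP slow, 7.4 and 3.2 in C6 fast, and 33.4 and 31.8 in C6 slow cells, so those of 6 arrays may lie within background. The same holds for the Ptgs2 probe set counted here on every array but the C6 fast ones, and for Hspa1a on all. It holds for F3 on the C6 fast arrays (6.8 and 4.7). Il6 and Hspa1a reached the filter's mean signal of 8 only through the C6 slow arrays. That Ptgs2 probe set reached it only through the C6 fast ones. The calls of these 3 genes are therefore no independent support for the group where they were high. Over the alternatives, the pseudocount among them, the difference ranged from 0.97 to 3.19 for Il6, 0.64 to 2.68 for Hspa1a and -5.41 to -2.34 for Ptgs2. For F3 it ranged from 2.99 to 5.33. The call for Il6 held in 2 of 8 runs without an array and in 7 of 15 alternatives (limma adjusted p up to 0.126). The calls for Map3k1 (limma adjusted p up to 0.174) and Hspa1a (up to 0.156) ended in each of the 8 and 5 runs without an array in which they were tested. Those for Klf4 ended without C6SPGFP fast replicate 2 or slow replicate 1, and those for Nes without C6SPGFP fast or slow replicate 1.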

How the results depend on the processing

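With 2 arrays per group, calls near the threshold depended on single arrays. Of 22 calls of immediate early gene probe sets, 6 held under every alternative, and of 85 calls of the other named genes 40 did. Over 502 recomputed values of the members, 405 kept their direction and side of the threshold, 81 lost their call, 15 gained one and 1 reversed: the third Fos probe set for fast minus slow in C6 had a change of 0.021 without C6 slow replicate 2 and of -1.575 without C6 slow replicate 1 (-0.76 with both). The count of member probe sets that passed ranged from 1 to 4 when an array was left out for fast minus slow in C6 (main 5), from 0 to 3 in C6SPGFP (1), from 2 to 5 for the difference (5), from 2 to 8 between the sets in slow cells (6) and from 2 to 6 in fast cells (5). When only the arrays compared were fitted the counts were 2 in C6, 2 in C6SPGFP and 3 between the sets in slow cells, and without the filter none passed in C6SPGFP. What moved these counts was not tested. Over all probe sets, fitting only the arrays compared gave 230 calls in C6 (445) and 270 between the sets in slow cells (424). Leaving out an array gave 279 to 446 in C6, 21 to 107 in C6SPGFP (93), 123 to 273 for the difference (255), 95 to 421 in slow cells and 509 to 1127 in fast cells (1042). Replicate numbers were taken as names only. The difference of replicate 1 and replicate 2 in 1 group was correlated with that in the other, over the 6684 probe sets tested. Between fast and slow cells r was 0.266 in C6 and 0.104 in C6SPGFP. Between the sets it was 0.027 in slow and 0.028 in fast cells. Each r rests on 2 pairs of same-numbered arrays. With the replicate number as a block, 4 member probe sets passed in C6, 1 in C6SPGFP, 5 for the difference, 5 in slow and 5 in fast cells. No scaling moved the median of all probe sets by over 0.1. Dim probe sets, such as those of Dusp1 and Atf3, are limited by their signal over background.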
